A study of Homo sapiens with 6 samples.

Results

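The aldo-keto reductases AKR1B1, AKR1B10, AKR1C1, AKR1C2 and AKR1C3, the aldehyde dehydrogenases ALDH1A1, ALDH3A1 and ALDH3A2, and the carbonyl and quinone reductases CBR1 and NQO1 were followed in A549, an established cell line from a human lung adenocarcinoma. The genes were chosen with earlier results of these data known. Their probe sets were taken by gene symbol. A probe set is a group of short probes read together as one value. Every one that the platform annotation gives to one of the 10 symbols was taken. This found 16 of the 22215 probe sets tested, for 9 of the 10 genes, against 11963 genes with a probe set in all. The annotation used here gives AKR1B1 no probe set, so that gene has no value. No probe set was listed under more than 1 of these symbols.

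The study has 6 Affymetrix arrays in 3 groups of 2. The PIAS3 group was transfected with a pCMV5 plasmid carrying human PIAS3, a SUMO ligase that inhibits STAT3, and the STAT3 siRNA group was transfected with an siRNA against that transcription factor. RNA was taken 48 h after transfection. The control arrays are labelled EGF stimulated, and their labels name no transfection. The design text says that all groups were kept without serum and then given EGF, while the growth protocol names medium with 10% FBS for seeding. The control had neither an empty plasmid nor a non-targeting siRNA according to the labels, so transfection itself and what was transfected cannot be told apart in a comparison with it. Nothing in the labels says that the 2 arrays of a group come from separate cultures, so the p-values rest on a spread between arrays that may be only technical.

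Aldo-keto reductases use NADPH to reduce aldehydes, ketones, steroids and prostaglandins to alcohols. Aldehyde dehydrogenases use NAD or NADP to oxidize aldehydes to acids, while CBR1 and NQO1 reduce carbonyl compounds and quinones. Many of these genes are known targets of NRF2, a transcription factor of the oxidant response that KEAP1 holds down, and A549 cells are known to carry defective KEAP1 and to express these enzymes strongly. ALDH3A1 and NQO1 are also textbook targets of the aryl hydrocarbon receptor (AHR).

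AKR1C1 and AKR1C2 are shown by their promoters because they are neighbouring near-copies whose bright probe sets read almost alike. The windows run from 250 bases before to 50 after the RefSeq transcription start (GRCh38.p14), at chr10:4963165-4963464 on the plus strand and chr10:5003808-5004107 on the minus strand, written 5′ to 3′. Capitals mark the bases at which the aligned windows differ, gaps included; overhanging ends are in lower case.
AKR1C1: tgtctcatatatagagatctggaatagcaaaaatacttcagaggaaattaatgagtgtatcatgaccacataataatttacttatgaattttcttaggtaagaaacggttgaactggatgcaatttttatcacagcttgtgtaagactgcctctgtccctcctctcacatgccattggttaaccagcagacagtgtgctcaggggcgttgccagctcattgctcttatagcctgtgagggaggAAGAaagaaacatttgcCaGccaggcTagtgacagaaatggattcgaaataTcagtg
AKR1C2: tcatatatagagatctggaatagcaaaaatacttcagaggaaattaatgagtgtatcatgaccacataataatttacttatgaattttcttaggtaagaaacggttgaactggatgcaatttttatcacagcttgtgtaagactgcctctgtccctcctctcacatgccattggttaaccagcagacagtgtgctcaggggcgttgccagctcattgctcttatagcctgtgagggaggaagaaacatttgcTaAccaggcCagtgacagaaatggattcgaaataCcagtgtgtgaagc
Over 296 aligned columns the windows were identical at 288 (97.3%), with 4 substitutions and 4 gap columns. The 2 AKR1C3 windows matched that of AKR1C1 at 76.9% and 75.3% of aligned columns. In gene order AKR1C1, AKR1C2 and AKR1C3 lie next to each other.

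CBR1 is shown because its window is the only one of the 11 searched with a match to the core of the antioxidant response element, the DNA sequence through which NRF2 acts. The letters searched were TGACNNNGC on both strands. The window lies at chr21:36069774-36070073 on the plus strand (GRCh38.p14, RefSeq), and capitals mark the match, which is on the minus strand and overlaps no match to the AHR core.
CBR1: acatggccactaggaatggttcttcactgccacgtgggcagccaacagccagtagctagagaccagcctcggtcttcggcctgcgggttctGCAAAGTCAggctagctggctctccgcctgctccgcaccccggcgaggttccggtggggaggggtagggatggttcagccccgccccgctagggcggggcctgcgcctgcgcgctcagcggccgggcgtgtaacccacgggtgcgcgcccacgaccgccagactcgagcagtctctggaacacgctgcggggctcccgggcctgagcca
RefSeq windows were at hand for 8 of the 10 genes, 11 windows in all, and 1 of the 11 held this core, against 13.3% of all 35116 windows. The AHR core GCGTG, searched on both strands, was in 5 of the 11, from AKR1B1, NQO1, ALDH3A2 and CBR1, against 36.5% of all windows. The windows of AKR1B1 overlap and hold the same match, so that site was counted in both. These matches describe letters in a short window only.

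The levels were high. Values are log2 of the probe signal, so a step of 1 is a doubling, and the level of one probe set does not rank its gene against another gene. Of the 16 probe sets, 8 lay above 99% of all probe sets on average, namely those of AKR1B10, AKR1C3 and ALDH1A1, both of AKR1C2, 2 of AKR1C1 and 1 of NQO1. They read between 13.22 and 14.06 in single arrays, and the highest value in the whole table was 14.36. Whether signals so near the top of the scale hold differences down was not tested.

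The arrays were checked before the comparisons. Array medians lay between 6.63 and 6.72. STAT3 read 0.38 ± 0.18 (SE) below control in the siRNA group by its brighter probe set and did not pass, and it read lower still in the PIAS3 group, by -0.53 ± 0.18, also without passing (limma adjusted p = 0.9998 and 0.254), so this check does not show the knockdown at the test's threshold. PIAS3 differed from control by 0.04 ± 0.11 in the PIAS3 group. Whether its probes can read the plasmid's transcript is not known from the labels. PIAS3 replicate 1 stood apart: 23 interferon-stimulated genes had a median of 3.91 above the control mean there and 24 poly-A spike-in probe sets one of 1.41, against -0.02 and -0.13 in replicate 2. The siRNA arrays also differed from each other, and over all probe sets siRNA replicate 2 lay nearer to PIAS3 replicate 2 (SD of the difference 0.19) than to siRNA replicate 1 (0.25). The keratins KRT7, KRT8 and KRT18 read 12.39 to 13.79 in all arrays, whereas SFTPC, the surfactant protein of alveolar type II cells, read 7.41 to 7.71. Not all epithelial and lung markers were bright: EPCAM and NKX2-1 read far lower than these keratins, with values below. The 11 measured had a mean level of 8.61 to 8.89 and a median of 7.41 to 7.71 in single arrays. The mean level of 11 leukocyte markers stayed between 5.57 and 5.68, that of 8 fibroblast markers between 5.47 and 5.64 and that of 6 endothelial markers between 5.08 and 5.17.

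**Figure D1:**
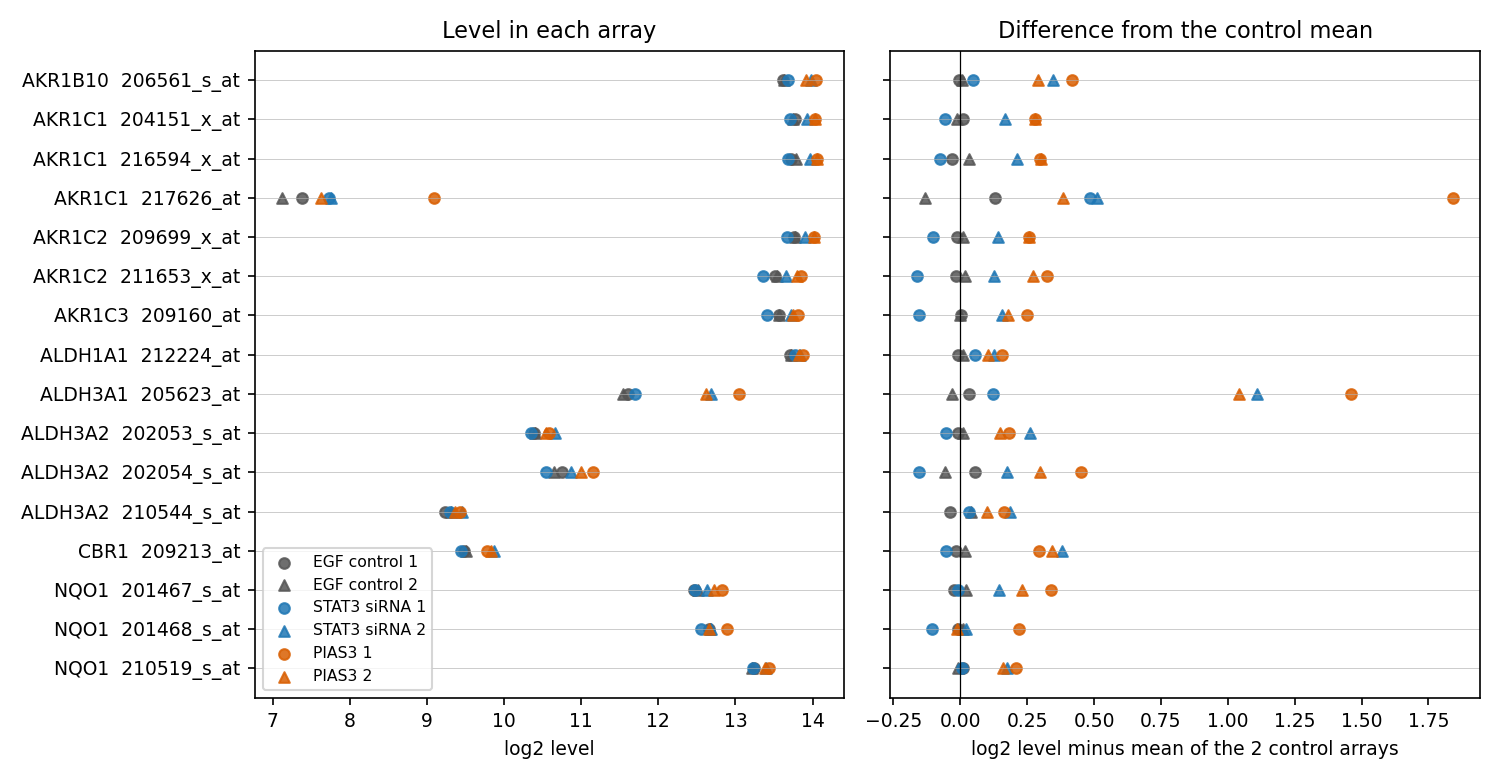
Log2 level of each of the 16 probe sets in the 6 arrays (left) and the same values minus the mean of the 2 control arrays (right); circles are replicate 1 and triangles replicate 2. ALDH3A1 sits at 11.55 to 11.70 in both controls and siRNA replicate 1 and at 12.62 to 13.04 in the other 3 arrays.

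The comparison of PIAS3 with control asks how these enzymes stood in cells given the plasmid. All 9 genes read higher in both PIAS3 arrays than in both controls by their brightest probe set, against 22.4% of all genes. The differences ran from 0.13 to 1.25 on the log2 scale, with a median of 0.30 against -0.00 over all genes. ALDH3A1, which oxidizes lipid and aromatic aldehydes, differed most (2.38-fold), and the others by 1.09- to 1.30-fold. None of the 16 probe sets passed the test (limma, Benjamini-Hochberg adjusted over all 22215 probe sets, threshold 0.05; adjusted p of 0.141 to 0.791), where 0.099% of all probe sets passed in either direction. At an unadjusted p under 0.05 there were 8 of the 16, all higher, against 6% of all probe sets in that direction. Counting probe sets, 15 of 16 had both PIAS3 arrays above both controls, against 21% of all, and several of these share a gene or cross-react, so they are not 15 separate observations. With 2 arrays a group, an exact two-sided permutation test of a single gene cannot go below 0.333. Because the genes were chosen with earlier results known, the shares given here describe the list and do not test it.

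Set against control, the result for the STAT3 siRNA turned on which siRNA array is read. In siRNA replicate 2 all 16 probe sets lay above both controls, against 31.8% of all probe sets. In siRNA replicate 1 only 4 did, against 41.8%. In that array 9 lay below both controls, for which the share of all probe sets was not computed. The group means therefore differed little from control, with a median of 0.09 over the 9 genes against -0.00 over all genes, and 0 of 16 probe sets passed (limma adjusted p of 0.9998 for each), against 0.0045% of all probe sets. The count at an unadjusted p under 0.05 was also 0, against 2.08% of all probe sets in the higher direction. Both siRNA arrays lay above both controls for 4 of 16, against 18.3% of all probe sets. Their probe sets belong to AKR1B10, ALDH1A1 and ALDH3A1 and to the dim probe set of AKR1C1.

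The direct comparison of PIAS3 with the siRNA put all 9 genes higher in the PIAS3 mean, with a median of 0.21 against -0.00 over all genes. Again 0 of 16 passed (limma adjusted p of 0.607 to 0.970), 2 were higher at an unadjusted p under 0.05 (3.57% of all probe sets), and 0 (0%) of all 22215 probe sets passed. Both PIAS3 arrays lay above both siRNA arrays for 7 of 16, against 16.2% of all probe sets. That median was 0.059 without siRNA replicate 1 and 0.37 without siRNA replicate 2, and the count of 7 became 15 without the latter (27.6% of all probe sets) and 13 without PIAS3 replicate 2 (34.2%). Both comparisons against control use the same 2 control arrays.

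**Figure D2:**
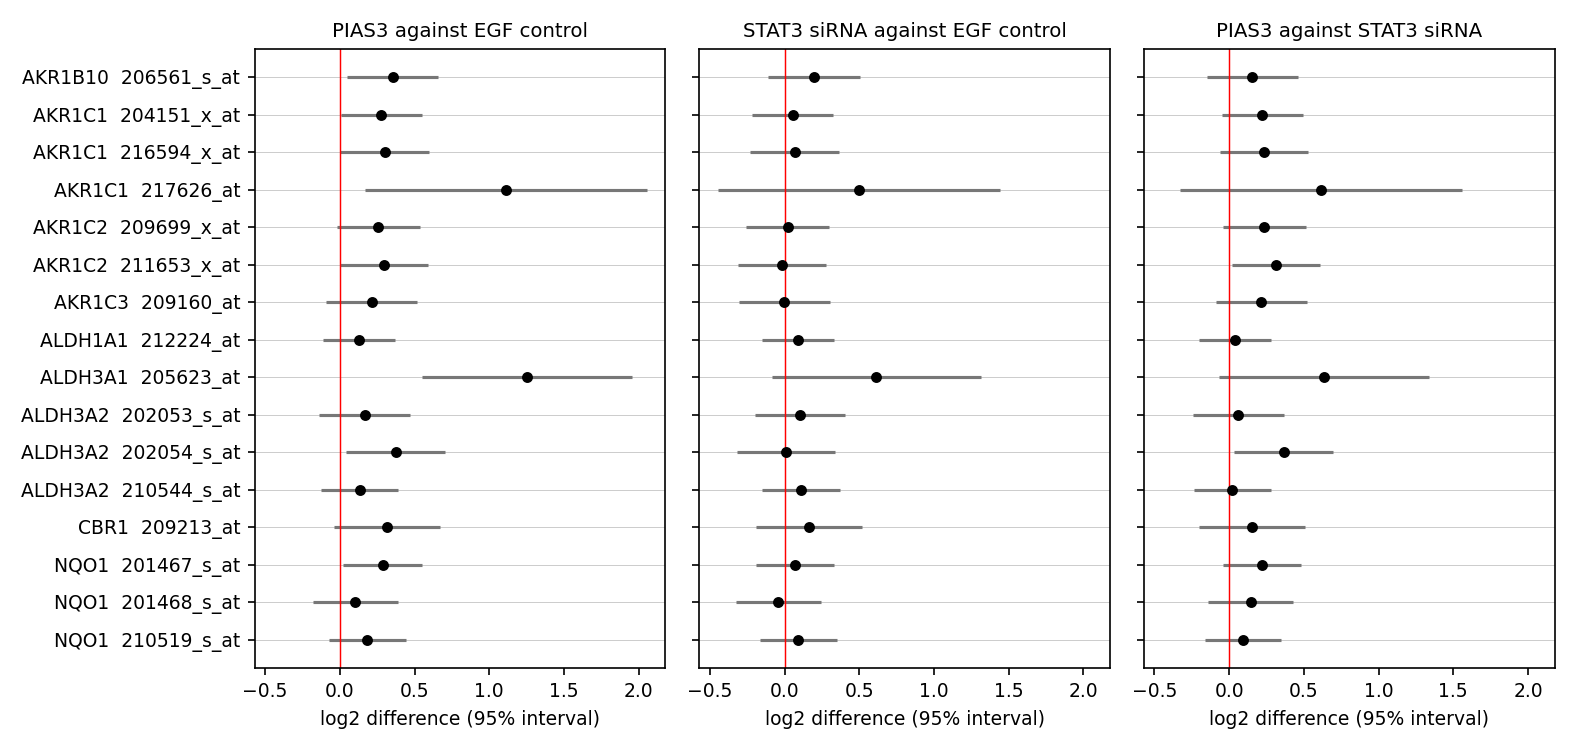
Log2 difference of each probe set in the 3 comparisons, with the fit's 95% interval (not adjusted for the number of probe sets); 2 arrays per group. ALDH3A1 and the dim AKR1C1 probe set have the widest intervals, and in the comparison of the siRNA with control every interval spans 0.

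Among the aldehyde dehydrogenases, ALDH3A1 read 11.61 and 11.55 in the controls, 11.70 and 12.69 in the siRNA arrays, and 13.04 and 12.62 in the PIAS3 arrays. Both PIAS3 arrays and siRNA replicate 2 were high, and siRNA replicate 1 lay just above the controls. The difference of PIAS3 from control was 1.25 ± 0.30 (SE, n = 2 per group; limma adjusted p = 0.141), with an interval of 0.55 to 1.95. For the siRNA it was 0.62 ± 0.30 (limma adjusted p = 0.9998), and between PIAS3 and the siRNA 0.64 ± 0.30 (limma adjusted p = 0.622). The siRNA arrays enter the spread of the first comparison although they are not in it, and they had an SD of 0.70 against 0.05 in the controls and 0.30 in the PIAS3 arrays. In a fit of PIAS3 and control alone, ALDH3A1 passed (1.25 ± 0.16, limma adjusted p = 0.0370), and the fit is the same with either siRNA array left out. Over its alternatives the adjusted p ran from 0.0370 to 0.761.

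ALDH3A2, the fatty aldehyde dehydrogenase, has 3 probe sets. The brightest read 10.75 and 10.64 in the controls, 10.54 and 10.87 in the siRNA arrays, and 11.15 and 10.996 in the PIAS3 arrays. PIAS3 arrays were above all others here, and siRNA replicate 1 was the lowest. It differed between PIAS3 and control by 0.37 ± 0.14 (limma adjusted p = 0.299) and between PIAS3 and the siRNA by 0.36 ± 0.14 (limma adjusted p = 0.607). The other probe sets gave 0.17 ± 0.13 and 0.13 ± 0.11 for PIAS3 against control, and in both siRNA replicate 2 read highest of the 6 arrays. ALDH3A2 and ALDH3A1 are near neighbours in gene order, with SLC47A2 between them, yet their differences from control in the PIAS3 group were 0.37 and 1.25; that gap between genes was not tested.

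ALDH1A1 makes retinoic acid from retinal. It read 13.71 and 13.73 in the controls, 13.77 and 13.84 in the siRNA arrays, and 13.87 and 13.82 in the PIAS3 arrays. All 4 transfected arrays lay above both controls, within a total range of 0.16. The difference was 0.13 ± 0.10 for PIAS3 (limma adjusted p = 0.656) and 0.09 ± 0.10 for the siRNA (limma adjusted p = 0.9998).

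Among the aldo-keto reductases, AKR1B10, which reduces retinal and lipid aldehydes, read 13.62 and 13.63 in the controls, 13.68 and 13.97 in the siRNA arrays, and 14.04 and 13.92 in the PIAS3 arrays. Again siRNA replicate 2 read with the PIAS3 arrays and replicate 1 near the controls. PIAS3 differed from control by 0.35 ± 0.13 (limma adjusted p = 0.291) and the siRNA by 0.20 ± 0.13 (limma adjusted p = 0.9998).

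AKR1C1 and AKR1C2, the hydroxysteroid dehydrogenases whose windows are printed above, have 4 bright probe sets with the suffix _x_at, which the array maker gives to probe sets that can cross-react with other transcripts. Centred on their own means, these 4 differed from each other by a root mean square of only 0.020 to 0.050 over the 6 arrays, and from the single AKR1C3 probe set by 0.034 to 0.048. They are therefore read together, and which of the genes they follow is uncertain. The brightest AKR1C1 probe set read 13.73 and 13.79 in the controls, 13.68 and 13.97 in the siRNA arrays, and 14.06 in both PIAS3 arrays. AKR1C2's brightest read 13.75 and 13.77 in the controls, 13.66 and 13.91 in the siRNA arrays, and 14.02 in both PIAS3 arrays. In both, the PIAS3 arrays were highest, siRNA replicate 2 lay between them and the controls, and siRNA replicate 1 lay below the controls. The 4 probe sets differed between PIAS3 and control by 0.26 to 0.30 (limma adjusted p of 0.350 to 0.40) and between PIAS3 and the siRNA by 0.22 to 0.32 (limma adjusted p of 0.609 to 0.647).

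The remaining AKR1C1 probe set, a dim one, did not follow the others. It read 7.38 and 7.12 in the controls, 7.73 and 7.76 in the siRNA arrays, and 9.09 and 7.63 in the PIAS3 arrays. Its high value lay in PIAS3 replicate 1 alone, the array with raised interferon-stimulated genes and spike-ins, and the part of these in the value was not tested. The difference of PIAS3 from control was 1.11 ± 0.40 (limma adjusted p = 0.283). With PIAS3 replicate 2 left out it passed against control (1.84, limma adjusted p = 0.00356) and against the siRNA (1.34, limma adjusted p = 0.0143), but these fits set 1 PIAS3 array against groups whose spread stands in for its own, and 1232 and 544 probe sets of the whole table passed in them.

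AKR1C3, which reduces steroid and prostaglandin precursors, read 13.57 in both controls, 13.41 and 13.72 in the siRNA arrays, and 13.82 and 13.74 in the PIAS3 arrays. Its siRNA arrays straddled the controls, and the mean difference of the siRNA from control was -0.00 ± 0.13. PIAS3 stood 0.21 ± 0.13 above control (limma adjusted p = 0.538).

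CBR1, a carbonyl reductase of quinones and prostaglandins, read 9.48 and 9.51 in the controls, 9.44 and 9.87 in the siRNA arrays, and 9.79 and 9.83 in the PIAS3 arrays. The highest array was siRNA replicate 2 and the lowest siRNA replicate 1. PIAS3 differed from control by 0.32 ± 0.15 (limma adjusted p = 0.415), the siRNA by 0.16 ± 0.15 (limma adjusted p = 0.9998), and PIAS3 from the siRNA by 0.15 ± 0.15 (limma adjusted p = 0.791).

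NQO1, which reduces quinones in a single 2-electron step, has 3 probe sets. By the brightest it read 13.24 and 13.22 in the controls, 13.23 and 13.40 in the siRNA arrays, and 13.44 and 13.38 in the PIAS3 arrays. PIAS3 differed from control by 0.18 ± 0.11 (limma adjusted p = 0.528), and the other probe sets gave 0.29 ± 0.11 and 0.10 ± 0.12. The last of these is the 1 probe set of the 16 whose PIAS3 and control arrays overlapped: PIAS3 replicate 2 read 12.65 against 12.65 and 12.67 in the controls.

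Read array by array, all 9 genes lay above both controls in both PIAS3 arrays and siRNA replicate 2. Of all probe sets, 38.9% and 36.4% did so in PIAS3 replicates 1 and 2, and 31.8% in siRNA replicate 2. In siRNA replicate 1, 3 genes lay above both (41.8% of all probe sets) and 5 below both. The share of all probe sets below both was not computed. The median of the 9 above the control mean was 0.29 in PIAS3 replicate 1, the array with raised interferon-stimulated genes, and 0.29 in PIAS3 replicate 2. Whether what raised those genes had a part in the enzymes' values was not tested. The median was 0.18 in siRNA replicate 2 and -0.05 in siRNA replicate 1. The 2 siRNA arrays differed by 0.07 to 0.99 over the 9 genes, with replicate 2 higher for each (0.07 to 0.43 without ALDH3A1), while the 2 PIAS3 arrays differed by -0.05 to 0.42 and the controls by -0.06 to 0.11. The root mean square difference over the 9 genes was 0.07 between siRNA replicate 2 and PIAS3 replicate 2, 0.10 between siRNA replicate 1 and each control, and 0.43 between the siRNA arrays (0.29 without ALDH3A1).

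Other readouts were set beside this split. Of 11 epithelial markers, 2 lay above and 3 below control in both PIAS3 arrays (22.4% and 23.7% of all genes), and 0 passed. The 4 with the smallest p did not go one way. KRT19, a keratin, read 11.16 and 11.02 in the controls and 10.76 in siRNA replicate 1, against 9.42 in siRNA replicate 2 and 9.02 and 9.34 in the PIAS3 arrays. The epithelial adhesion molecule EPCAM read 7.24, 7.22 and 7.12 in the former and 6.04, 6.36 and 6.78 in the latter. NKX2-1, a lung transcription factor, read 5.60 to 5.80 in the latter and 5.90 to 6.02 in the former. CDH1, the E-cadherin gene, stood the other way and without that split, at 8.31 and 8.19 in the controls, 8.37 and 8.60 in the siRNA arrays, and 9.54 and 9.14 in the PIAS3 arrays. The gap between 3′ and 5′ actin probe sets, a sign of RNA quality, was 0.12 and 0.10 in the controls. It was 0.16 in siRNA replicate 1, 0.23 in siRNA replicate 2, and 0.43 and 0.28 in the PIAS3 arrays. For GAPDH the gap separated the arrays less, at 0.36 and 0.29 in the controls and 0.29 and 0.40 in siRNA replicates 1 and 2. In the PIAS3 arrays it was 0.40 and 0.37. The part of these readouts in the enzymes' values was not tested.

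Profiles most like those of 3 enzymes were found by the root mean square difference of centred values over the 6 arrays, for the enzymes with the largest range. Nearest to ALDH3A1 were IL1R1, an interleukin receptor (0.084), the synaptic protein SNAP25 (0.092), the retinol carrier RBP4 (0.0998) and the proteoglycan VCAN (0.118). Nearest to ALDH3A2 were PPP1R14D (0.045), PSG4 (0.048), ITSN2 (0.049) and GALNS (0.053), and nearest to CBR1 were MTIF2 (0.027), TRMT61B (0.034), NPR3 (0.039) and PREPL (0.043). With 6 arrays and 11963 genes, near profiles are a description only. IL1R1 read 7.36 and 7.38 in the controls, 7.47 and 8.33 in the siRNA arrays, and 8.68 and 8.47 in the PIAS3 arrays, the same split as ALDH3A1.

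**Figure D3:**
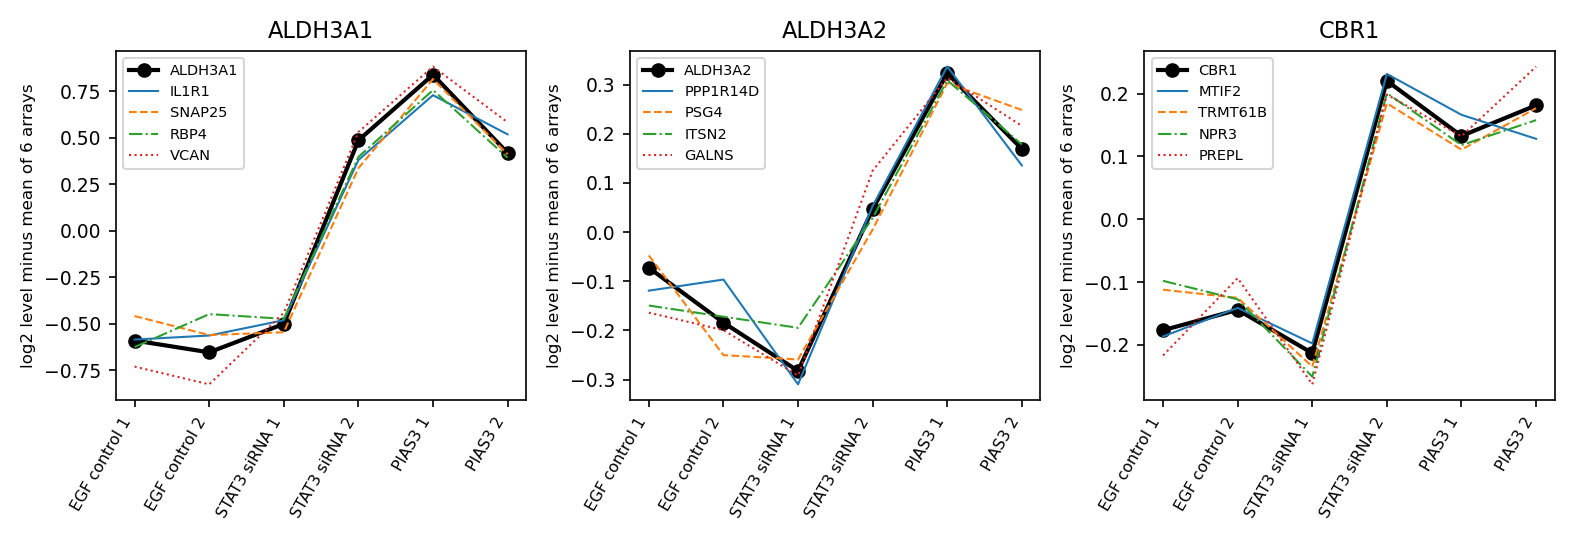
Log2 level minus the mean of the 6 arrays for ALDH3A1, ALDH3A2 and CBR1 (black) and the 4 genes with the least root mean square difference from each; lines join arrays as a guide and have no order in time. For ALDH3A1, siRNA replicate 2 (12.69) reads with the PIAS3 arrays (13.04 and 12.62) and siRNA replicate 1 (11.70) near the controls (11.61 and 11.55).

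Other genes under NRF2 were read in the same way. Of 26 measured target genes that are not among the 9, 21 had both PIAS3 arrays above both controls and 0 below (22.4% and 23.7% of all genes), with a median of 0.42 against -0.00 over all genes, and 0 passed over all probe sets. The 4 with the smallest p were the glutathione peroxidase GPX2 (1.82 ± 0.35), PIR (0.93 ± 0.18), the carboxylesterase CES1 (1.74 ± 0.35) and the NADPH-producing isocitrate dehydrogenase IDH1 (0.94 ± 0.20), at limma adjusted p-values of 0.097 to 0.117. Array by array the median was 0.51 and 0.45 in the PIAS3 arrays, 0.39 in siRNA replicate 2 and 0.04 in siRNA replicate 1. For the siRNA group 11 were above both controls and 1, ABCC3, below (19.4% and 19.5% of all genes), with a median of 0.19 and 0 passing.

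Regulators of the pathway were read next. NFE2L2, the gene of NRF2, read 10.22 and 10.24 in the controls, 10.25 and 10.58 in the siRNA arrays, and 10.9999 and 10.63 in the PIAS3 arrays, a difference of 0.59 ± 0.16 for PIAS3 (limma adjusted p = 0.192). KEAP1, its inhibitor, differed by 0.26 ± 0.11 (limma adjusted p = 0.382) and SQSTM1, a KEAP1-binding autophagy receptor, by 0.39 ± 0.18 (limma adjusted p = 0.415). Of 8 measured regulators 4 had both PIAS3 arrays above both controls (22.4% of all genes), 0 lay below (23.7%) and 0 passed. Their median difference was 0.30; the median was 0.50 in PIAS3 replicate 1 and 0.14 in replicate 2.

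Relatives of the enzymes are given beside the same shares, 22.4% of all genes above and 23.7% below for PIAS3 against control. Of 7 other aldo-keto reductases, 2 lay above and 1 below control in both PIAS3 arrays, with a median of 0.02. Among them AKR1C4 differed by 0.52 ± 0.19 at a low level of 4.23 to 5.03 in the PIAS3 and control arrays (limma adjusted p = 0.297). Of 14 other aldehyde dehydrogenases, 4 lay above and 3 below, with a median of -0.01. ALDH1B1 and ALDH1A3, which like ALDH1A1 can oxidize retinal, stood below control by -0.98 ± 0.14 (limma adjusted p = 0.071) and -0.64 ± 0.13 (limma adjusted p = 0.114), while mitochondrial ALDH2 stood above by 0.67 ± 0.18 (limma adjusted p = 0.172). ALDH1B1 read 8.97 and 9.26 in the controls, 8.51 and 8.49 in the siRNA arrays, and 8.01 and 8.25 in the PIAS3 arrays, so here both siRNA arrays lay below the controls. Of 13 other carbonyl and quinone reductases, 4 lay above and 3 below, with a median of 0.01; POR, which feeds electrons to cytochromes P450, stood at 0.48 ± 0.11 (limma adjusted p = 0.130), and CBR3, the neighbour of CBR1, at 0.31 ± 0.12 (limma adjusted p = 0.295). In each of these 3 lists 0 genes passed in any of the 3 comparisons.

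**Figure D4:**
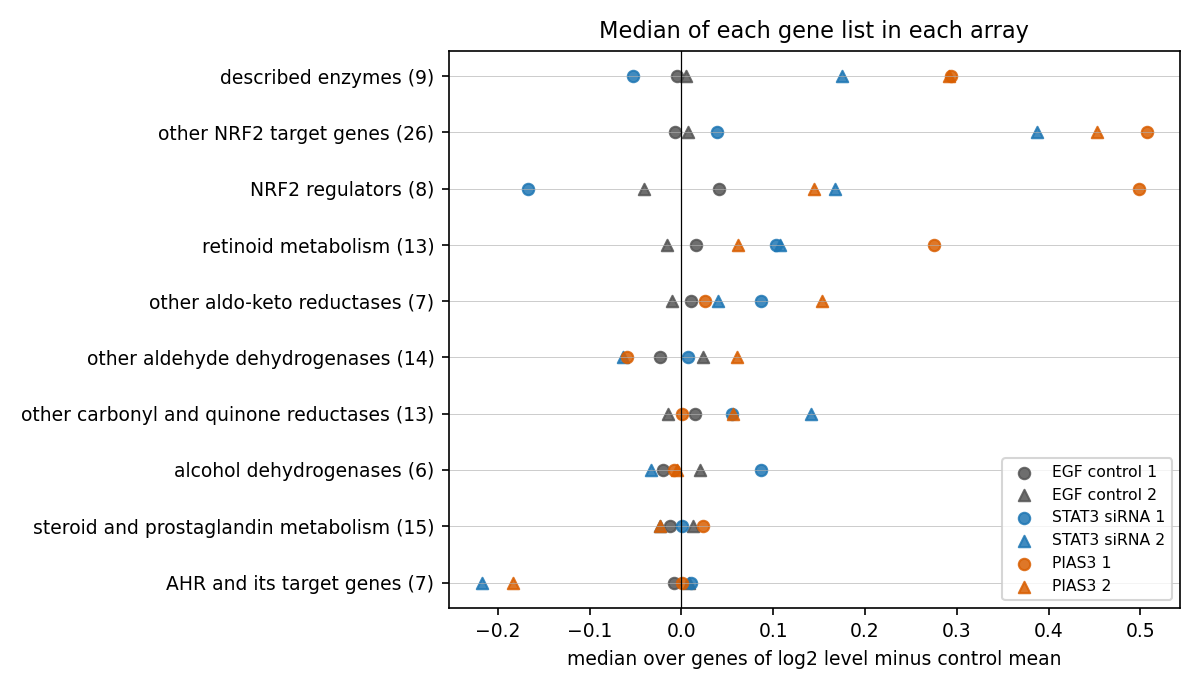
Median over each list's genes (number measured in brackets) of the log2 level minus the control mean, for each array. The described enzymes lie at 0.29 in both PIAS3 arrays and the other NRF2 target genes at 0.51 and 0.45, and the other aldo-keto reductases, aldehyde dehydrogenases and reductases lie between -0.06 and 0.15.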

How the data were processed

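For the 6 arrays the authors deposited log2 expression, 1 value per probe set, made with RMA per the submitters' processing notes. RMA subtracts background, quantile-normalizes the arrays and summarises each probe set; its version is not given. Of 22277 probe sets, 62 array controls were left out. Gene names came from the supplied platform annotation: 19064 probe sets had 1 symbol, 1043 several and 2108 none, and 19052 were matched to RefSeq by gene identifier. The brightest probe set with 1 symbol stood for a gene.

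All 6 arrays entered one limma 3.58.1 fit in R 4.3.3 (lmFit, eBayes; tests were two-sided, with 3 residual and 4.27 prior degrees of freedom). It was tried on simulated data whose changes were larger than most differences described here, so the trial does not speak for small ones. Adjusted p-values are Benjamini-Hochberg over 22215 probe sets in each comparison. List genes named are those with the smallest p; like profiles were ranked over all genes. Genes and lists were chosen with earlier results of these data known. ABCC3 and CYP1A1 were picked out after their values were seen. Alternatives were a replicate block, other normalizations, a filter on dim probe sets (under the 40th percentile), a trend, array weights, the 2 groups alone, mean probe sets and each array left out. Counts of probe sets with the first group named above the second, with arrays left out, were added after seeing the data. Promoters were aligned with Biopython 1.88 and figures drawn with matplotlib 3.10.9 in Python 3.11.15.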

Additional observations from a re-analysis of the deposited data

How the results depend on the processing

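The 9 genes kept their direction for PIAS3 against control under all 15 alternatives, with a median between 0.27 and 0.37. Most of these could not have turned a sign. The replicate block, dim filter, trend, array weights, 2 groups alone and leaving out an siRNA array do not change these differences. Leaving out a PIAS3 or control array could not turn them, because the groups do not overlap for these genes. Probe sets called over the whole table, 22 for PIAS3 against control, became 2 with the replicate block, with quantile normalization again and with dim probe sets left out, 39 with cyclic loess, 143 with array weights and 262 with the 2 groups alone, and 0 to 1232 with an array left out. For the siRNA against control, 1 became 0 with quantile normalization or cyclic loess, 3 with the 2 groups alone, 8 with array weights and 0 to 5 with an array left out. For PIAS3 against the siRNA, 0 became 0 to 544 with an array left out. Of the 16 probe sets, 1 (ALDH3A1) was called for PIAS3 against control with the 2 groups alone, and 0 to 1 with an array left out in both comparisons with PIAS3. Leaving out an array gave medians of -0.053 to 0.175 for the siRNA against control and 0.059 to 0.370 for PIAS3 against the siRNA. Counts of probe sets with all arrays of the first group above the second, leaving aside those below, moved too. For the siRNA against control they ran from 4 without siRNA replicate 2 (41.8% of all probe sets) to 16 without siRNA replicate 1 (31.8%). For PIAS3 against the siRNA the count was 7 without siRNA replicate 1 (36.3%) or PIAS3 replicate 1 (30.8%). It was 15 without siRNA replicate 2 (27.6%). With an array left out the fit has fewer arrays, and with the 2 groups alone it lacks the siRNA spread. The causes of these changes were not tested.

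Differences that turned sign were small and none was called. For the siRNA against control, AKR1C3 went from -0.00069 to 0.012 with quantile normalization and -0.156 to 0.155 with an array left out, and ALDH3A2 from 0.010 to -0.00045 with cyclic loess and -0.154 to 0.175 with an array left out. With an array left out CBR1 ran from -0.053 to 0.381, AKR1C2 from -0.101 to 0.142 and AKR1C1 from -0.077 to 0.212, and CBR1 for PIAS3 against the siRNA from -0.063 to 0.370. Nothing in the labels ties arrays of the same replicate number together. Deviations of same-numbered arrays correlated at -0.05, -0.06 and 0.09. Arrays that stood apart enter these values, so they do not settle whether a batch was shared. The replicate block left 0 of 16 probe sets called and ALDH3A1 at 1.25 (limma adjusted p = 0.159). The number of arrays limits the precision.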

Other observations

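Genes of retinoid metabolism and signalling lie around the retinal-oxidizing enzymes. Of 13 measured, 8 had both PIAS3 arrays above both controls and 2 below (22.4% and 23.7% of all genes), with a median of 0.12 against -0.00 over all genes, and 0 passed over all probe sets. The retinal reductase DHRS3 read 8.59 and 8.56 in the controls, 8.97 and 9.34 in the siRNA arrays, and 9.69 and 9.46 in the PIAS3 arrays (PIAS3 against control 1.01 ± 0.15, limma adjusted p = 0.079). The retinoic acid receptor RARB stood 1.14 ± 0.20 above control (limma adjusted p = 0.091) and the retinoic acid hydroxylase CYP26B1 0.74 ± 0.14 (limma adjusted p = 0.097), and both siRNA arrays were above both controls for these 3 genes. The median over the list was 0.27 in PIAS3 replicate 1 and 0.06 in replicate 2.

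Genes of the AHR battery, to which ALDH3A1 and NQO1 belong, gave other values; this difference from the enzymes was not tested. TIPARP, an ADP-ribosyltransferase induced through AHR, fell by 1.57 ± 0.18 in the PIAS3 group (limma adjusted p = 0.048). It was the only one of 7 measured to pass. For the siRNA it differed by -1.30 ± 0.18 (limma adjusted p = 0.238). NFE2L3 differed by -0.84 ± 0.13 for PIAS3 (limma adjusted p = 0.079) and -0.90 ± 0.13 for the siRNA (limma adjusted p = 0.263). Of the 7, 1 had both PIAS3 arrays above both controls and 3 below, against the same shares of all genes. For the siRNA, 0 lay above and 2, TIPARP and NFE2L3, below (19.4% and 19.5% of all genes). CYP1A1, the classical AHR target, differed by -0.02 ± 0.16 at a low level of 5.18 to 5.56 in the 6 arrays, below every array median. CYP1B1 differed by 0.49 ± 0.31 (limma adjusted p = 0.552). CYP1B1 read 7.84 in siRNA replicate 1, below both controls (8.28 and 8.45), and 8.94 in replicate 2. Of 15 steroid and prostaglandin genes 4 lay above and 4 below with a median of -0.01, and of 6 alcohol dehydrogenases 0 and 0 with a median of -0.04, again against 22.4% and 23.7% of all genes; 0 of either list passed.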
